A study of Rattus norvegicus with 8 samples.

Results

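Cobalamin handling and propionate oxidation were followed in rat liver through 10 genes whose products carry vitamin B12 (cobalamin) to the cell, move it through the lysosome, convert it to its active forms and use it to oxidise propionate. The genes are Tcn2, Cd320, Lmbrd1, Abcc1, Mmachc, Mmaa, Mmab, Mut, Pcca and Pccb. Members were the non-control probes whose gene name in the array files equals one of these symbols. That rule uses no measured value, but the genes themselves were proposed with earlier results of these data known. Mmab, the adenosyltransferase that makes adenosylcobalamin, had no probe under its name and was not analysed here. The other 9 genes had 11 probes, and all 9 were among the 14915 genes bright enough to be tested.

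The deficient livers came from 4 Wistar rats aged 21 days (2 males, 2 females) born to dams fed a diet without vitamin B12 and folates, which the study calls the methyl donor deficient (MDD) diet. The control livers came from 4 Wistar rats of the same age (1 male, 3 females) born to dams fed standard food. The dams had their diet from a month before pregnancy until weaning, so the pups were exposed through the mother, and the study asked which liver genes differ at weaning. Total RNA of whole liver was measured on 4 Agilent 2-colour arrays, each with 1 deficient and 1 control liver in different dyes. Arrays 1 to 4 carried deficient livers 3, 1, 4 and 2 beside control livers 1, 3, 2 and 4. The replicate numbers are names only. The litters are not given in the sources used here, so p-values speak only of the spread among these particular animals, and some of them may be littermates.

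Cobalamin reaches tissues in the blood bound to transcobalamin, is taken up by a receptor, freed in the lysosome and exported from it to the cytosol. There its upper ligand is removed, and the vitamin is converted to methylcobalamin for methionine synthase or to adenosylcobalamin for methylmalonyl-CoA mutase in mitochondria. The mutase takes the last step of propionate oxidation, which turns propionyl-CoA from valine, isoleucine, methionine, threonine and odd-chain fatty acids into succinyl-CoA. Liver is a main store of the vitamin and a main site of propionate oxidation.

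Of the 9 measured genes, Abcc1, a membrane exporter, and Cd320, the receptor that takes up transcobalamin, were higher in deficient than in control livers by the test used. Abcc1 was 1.34-fold higher (95% interval 1.13 to 1.58) and Cd320 was 1.22-fold higher (1.08 to 1.37). The other 7 genes, among them the mutase Mut and both subunits of propionyl-CoA carboxylase, did not pass the test. Calls were made by limma, with p-values adjusted by Benjamini-Hochberg over all genes tested and a threshold of 0.05. By this rule 11.1% of all genes tested were called, 4.51% being higher and 6.56% lower in deficient livers. The 2 of 9 members called stand against that background, and with so few genes no more can be read from the share. The median log2 change, deficient minus control, was 0.12 over the members and 0.01 over all genes.

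The arrays read each gene through probes of 60 bases, and the probes that bear on the genes that were called, or came close to it, are shown by their first 30 bases. The Abcc1 probes lie on chromosome 10 of the rn4 build at chr10:452239-452298 (the brightest), chr10:452585-452644 (the second) and chr10:478141-478200 (the dimmest). In the transcript named by the files, NM_022281, they begin at bases 4921, 4575 and 2634. The Cd320 probe lies at chr7:16343659-16343718 and the Lmbrd1 probe at chr9:23511011-23511070. Exon and intron annotation of this build was not used here.
Abcc1, brightest probe: caaagcaaggccatgagcagccaaacacac
Abcc1, second probe: tctgagctcctgcagcaaagaggcgtcttc
Abcc1, dimmest probe: ttcgtgcgcacctatgccaacactgagcag
Cd320: acctgggctcttttggccacagagaacttt
Lmbrd1: attatgagtctgactcaagtagagttcatg

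Levels below are log2 normalised intensities. They are compared between livers for 1 probe at a time and not between genes. In bulk tissue a lower or higher level can come from the number of cells of a type or from the RNA per cell, and these cannot be told apart.

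Tcn2 encodes transcobalamin, the plasma protein that delivers cobalamin to cells, and its probe lies at chr14:84581473-84581532 (rn4, as for all probes). Its level was 9.69, 10.14, 10.47 and 10.50 in deficient livers 1 to 4, against 10.23, 10.43, 10.27 and 10.46 in control livers 1 to 4. The groups overlapped, with deficient livers 1 and 2 below every control liver. The log2 change was -0.15 ± 0.11 (SE, 95% interval -0.39 to 0.10, limma adjusted p = 0.413). The ratio of the deficient to the control liver was -0.58 and -0.32 (log2) on arrays 2 and 4, where the deficient liver was in Cy5, and 0.24 and 0.07 on arrays 1 and 3, where it was in Cy3. The fitted dye effect on this probe, Cy5 minus Cy3, was -0.30, and diet was estimated with this term in the fit.

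Cd320 encodes the transcobalamin receptor at the cell surface. Its level was 10.09, 10.07, 10.29 and 10.39 in deficient livers 1 to 4, against 9.87, 9.98, 9.85 and 10.00 in control livers 1 to 4. Every deficient liver lay above every control liver, although deficient liver 2 was close to control liver 4, its partner on array 4. The means were 10.21 ± 0.16 in deficient livers and 9.92 ± 0.08 in control livers (SD, n = 4 each), and the log2 change was 0.29 ± 0.08 (SE, limma adjusted p = 0.0462). The gene was higher in the deficient liver on all 4 arrays, by 0.43, 0.24, 0.41 and 0.06 on arrays 1 to 4. The call sits close to the threshold. It was kept without deficient liver 2 (limma adjusted p = 0.0207) and without array 4 (0.0346), and lost when any other liver or array was left out (0.0629 to 0.245), with changes between 0.23 and 0.33.

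Lmbrd1 encodes a lysosomal membrane protein needed for cobalamin to leave the lysosome. Its level was 8.75, 9.51, 9.25 and 9.46 in deficient livers 1 to 4, against 8.65, 8.97, 9.003 and 8.87 in control livers 1 to 4. Deficient livers 2, 3 and 4 were above all controls, and deficient liver 1 was above control liver 1 only. The log2 change was 0.37 ± 0.14 (SE, 95% interval 0.04 to 0.69) and did not pass the test (limma adjusted p = 0.134). Array 2 carried the deficient liver that differed from the rest: the ratio was -0.26 there and 0.60, 0.49 and 0.63 on arrays 1, 3 and 4. Without deficient liver 1 the change was 0.56 (limma adjusted p = 0.0108), and without array 2 it was 0.59 (0.0213). It was 0.18 without deficient liver 2 and 0.14 without array 4 (limma adjusted p = 0.198 and 0.299). Among females alone it was 0.06 (0.865), from only 2 deficient livers, 1 and 3, against 3 control livers.

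Abcc1 encodes the multidrug resistance protein MRP1, which exports glutathione conjugates and leukotriene C4 and, in mouse, free cobalamin from cells. The brightest probe read 8.88, 8.38, 8.52 and 8.53 in deficient livers 1 to 4, against 8.31, 7.99, 8.18 and 8.16 in control livers 1 to 4. The groups did not overlap, although deficient liver 2 was close to control liver 1. The means were 8.58 ± 0.21 in deficient livers and 8.16 ± 0.13 in control livers (SD, n = 4 each), and the log2 change was 0.42 ± 0.11 (SE, limma adjusted p = 0.0412). The gene was higher in the deficient liver on all 4 arrays, by 0.21, 0.70, 0.54 and 0.22 on arrays 1 to 4.

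The second Abcc1 probe read 8.86, 7.99, 8.03 and 8.07 in deficient livers 1 to 4, against 8.01, 7.68, 7.59 and 7.54 in control livers 1 to 4. Deficient liver 1 stood above the rest, and deficient liver 2 was just below control liver 1, so that the groups overlapped. Its log2 change was 0.53 ± 0.15 (SE), with a limma adjusted p of 0.0515 over the 16730 probes tested one by one, of which 11% were called. It passed without deficient liver 2 (limma adjusted p = 0.00578) and without array 4 (0.0119). Tested in that way 2 of the members' 10 probes were called, the brightest Abcc1 probe and that of Cd320. The dimmest Abcc1 probe was not well above background in any of the 8 samples and was not tested. The call on the brightest probe was kept without deficient liver 2 (limma adjusted p = 0.0105) and without array 4 (0.0192), and lost when any other liver or array was left out (0.0595 to 0.305), with changes between 0.30 and 0.54.

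**Figure D1:**
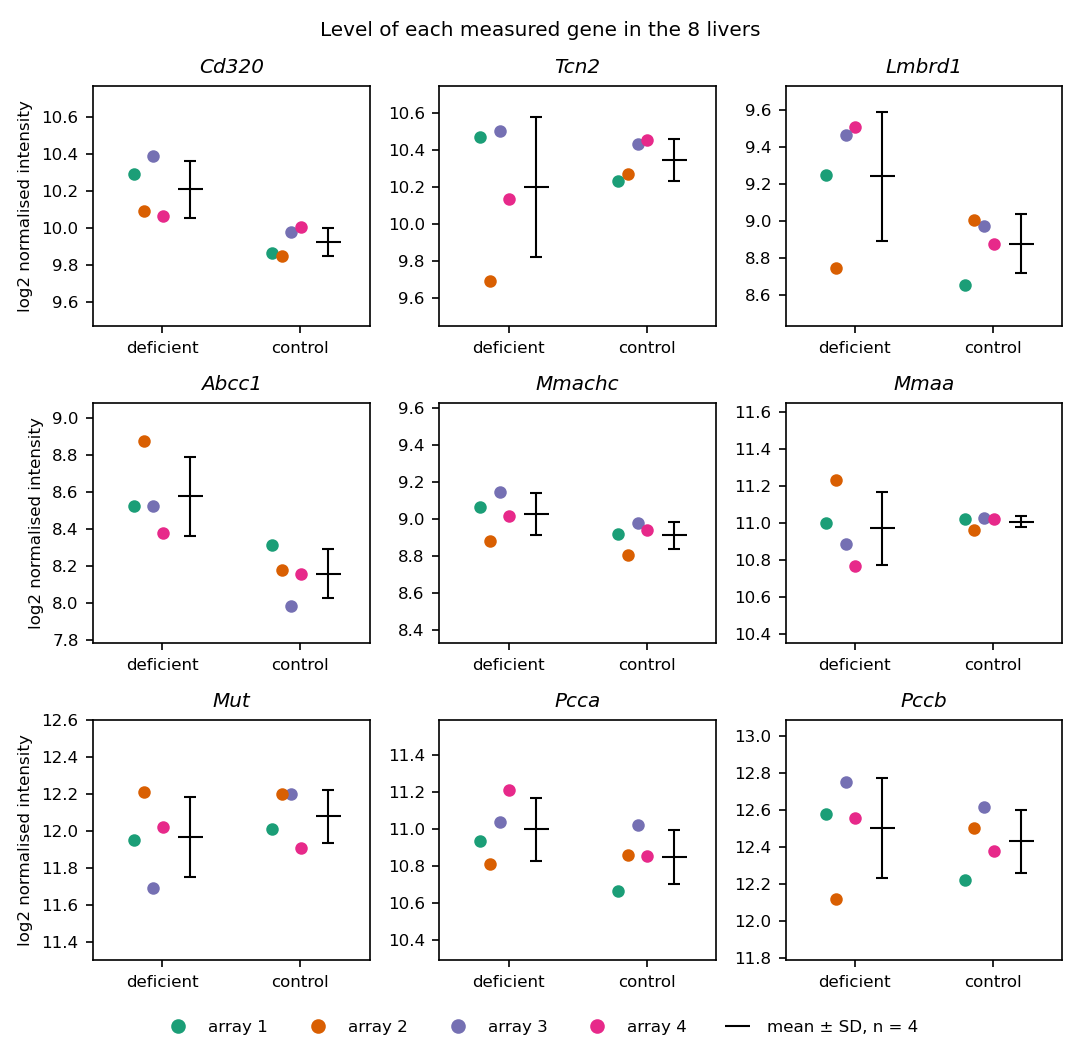
Log2 normalised intensity (vertical axis) of each measured gene in the 4 deficient (left) and 4 control (right) livers, with points coloured by array and bars giving the mean ± SD. The deficient and control points are apart for Cd320 and Abcc1 and overlap for the other 7 genes.

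Of the 9 members, these 2 were the ones whose groups did not overlap, both being higher in deficient livers. Over the 14851 genes with all 8 values, the groups did not overlap for 11.3%, and 5.4% did so with the deficient livers higher. Cd320, Abcc1 and Mmachc were higher in the deficient liver on all 4 arrays, against 13.5% of all genes. At an unadjusted p under 0.05 there were 3 members, Cd320, Lmbrd1 and Abcc1, against 27.7% of all genes.

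Mmachc encodes the cytosolic chaperone that receives cobalamin from the lysosome and removes its upper ligand, and its probe lies at chr5:136995878-136995937. Its level was 8.88, 9.02, 9.06 and 9.15 in deficient livers 1 to 4, against 8.92, 8.98, 8.81 and 8.94 in control livers 1 to 4. The ratios were 0.15, 0.07, 0.17 and 0.08 on arrays 1 to 4, small and all above 0. This gave a log2 change of 0.12 ± 0.07 (SE, 95% interval -0.05 to 0.28, limma adjusted p = 0.346).

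Mmaa encodes a mitochondrial G protein that loads adenosylcobalamin onto the mutase and protects it, and its probe lies at chr19:30485481-30485540. Mmaa read 11.23, 10.76, 11.00 and 10.89 in deficient livers 1 to 4, against 11.02, 11.02, 10.96 and 11.02 in control livers 1 to 4. The control livers lay within a narrow band that the deficient livers spread around on either side. It differed by a log2 change of -0.04 ± 0.10 (SE, 95% interval -0.26 to 0.18, limma adjusted p = 0.837).

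Mut encodes methylmalonyl-CoA mutase, the enzyme that needs adenosylcobalamin, and its probe lies at chr9:15797332-15797391. Its level was 12.21, 12.02, 11.95 and 11.69 in deficient livers 1 to 4, against 12.01, 12.20, 12.20 and 11.91 in control livers 1 to 4. The groups overlapped, and deficient liver 4 was the lowest of the 8. Mut differed by a log2 change of -0.11 ± 0.10 (SE, 95% interval -0.33 to 0.11, limma adjusted p = 0.502).

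The probes of Mut and Mmaa were each printed as 10 spots on every array, which gives a measure of the error between spots. The spots of an array share their labelled RNA and hybridisation, so errors of those steps are not covered. The SD of a sample's log2 level over the spots was 0.22 to 0.27 for Mut and 0.12 to 0.19 for Mmaa. For an array's log2 ratio the SD over the spots was smaller, 0.020 to 0.037 for Mut and 0.032 to 0.040 for Mmaa. The ratios themselves ran from -0.51 to 0.12 over the 4 arrays for Mut and from -0.26 to 0.27 for Mmaa. The spread of the ratios between arrays was thus many times that of the ratios between spots of 1 probe.

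Pcca and Pccb encode the biotin-carrying and the carboxyltransferase subunits of propionyl-CoA carboxylase, which makes the methylmalonyl-CoA that the mutase uses after epimerisation. The Pccb probe lies at chr8:105948641-105948700, and that of Pcca is given as chr15:107945733-108014585, a span much longer than its 60 bases. Pcca read 10.81, 11.21, 10.94 and 11.04 in deficient livers 1 to 4, against 10.67, 11.02, 10.86 and 10.85 in control livers 1 to 4. Pccb read 12.12, 12.56, 12.58 and 12.76 in deficient livers 1 to 4, against 12.22, 12.62, 12.51 and 12.38 in control livers 1 to 4. In both genes the groups overlapped. For Pcca the log2 change was 0.15 ± 0.10 (SE, 95% interval -0.07 to 0.37, limma adjusted p = 0.362). For Pccb it was 0.07 ± 0.11 (SE, 95% interval -0.19 to 0.33, limma adjusted p = 0.723).

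**Figure D2:**
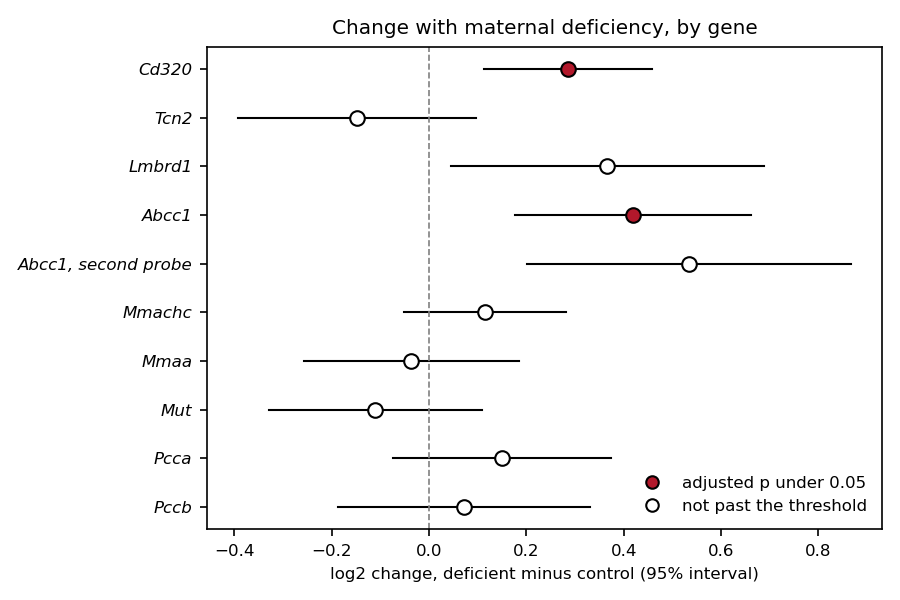
Log2 change, deficient minus control (horizontal axis), with its 95% interval, for the 9 measured genes and the second Abcc1 probe. Filled points passed the adjusted p threshold of 0.05: Cd320 at 0.29 and Abcc1 at 0.42 are filled, while the second Abcc1 probe at 0.53 is open.

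For these 9 genes the SE of a log2 change was 0.07 to 0.14, with a median of 0.10 over the members and 0.10 over all genes. The 95% intervals reached a median of 0.22 to either side. For the 7 genes that were not called the intervals extended as far as 0.69 on the higher side (Lmbrd1) and -0.39 on the lower (Tcn2). They leave room for differences up to those limits, and a p that misses the threshold does not show equal levels.

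Deficient liver 1 was the highest or the lowest of the deficient livers for 8 of the 9 members, the highest for 3 (Abcc1, Mmaa and Mut) and the lowest for 5 (Tcn2, Lmbrd1, Mmachc, Pcca and Pccb). Over all genes it held an extreme place for 68.7%, against 35.1% to 49.1% for deficient livers 2 to 4. Among the control livers the share was 60.6%, 44.5%, 34.8% and 60.1% for livers 1 to 4. Array 2, which carries deficient liver 1, had the widest spread of log2 ratios over all genes. Its SD was 0.57, against 0.31, 0.40 and 0.42 on arrays 1, 3 and 4.

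**Figure D3:**
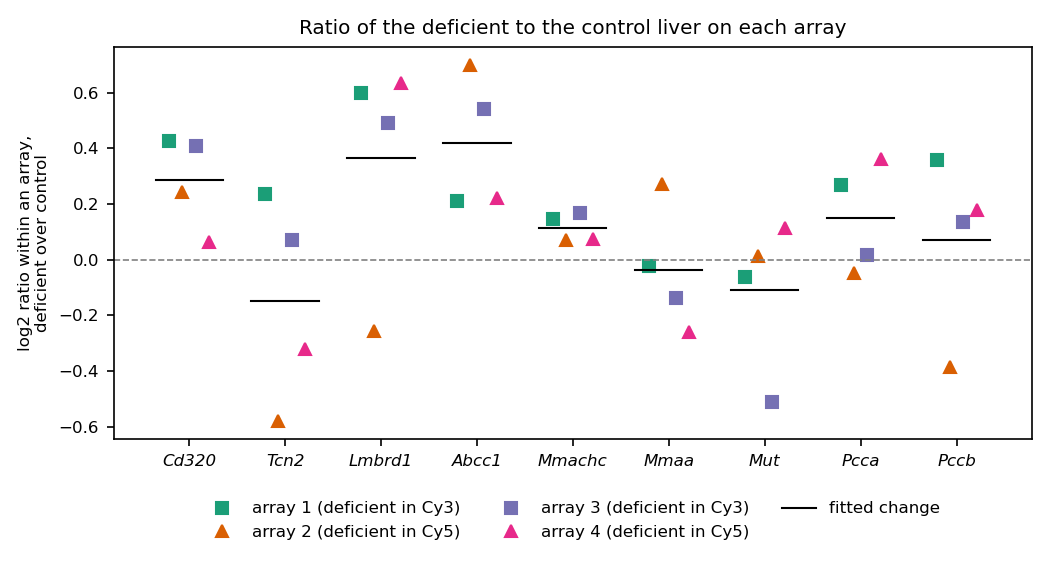
Log2 ratio of the deficient to the control liver on each of the 4 arrays (vertical axis) for the 9 measured genes, with squares where the deficient liver was in Cy3, triangles where it was in Cy5 and a line at the fitted change. Cd320, Abcc1 and Mmachc are above 0 on all 4 arrays, whereas Lmbrd1 is below 0 on array 2 (-0.26) and Tcn2 is below 0 on both arrays with the deficient liver in Cy5.

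The groups differ in their number of males. With sex added to the fit, the difference between male and female livers (male minus female) lay between -0.20 for Mut and 0.18 for Lmbrd1 (log2). By limma 0 of the 9 members were called for sex (all adjusted p = 0.9999), as were 0% of all 14915 genes, and 0 members had an unadjusted p under 0.05, against 2.73% of all genes. With so few calls over all genes, these counts say nothing particular about the members. The same fit ended both diet calls, with log2 changes of 0.42 for Abcc1 and 0.29 for Cd320 (limma adjusted p = 0.0937 and 0.115), and called 0 of the 9 members for diet.

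The upstream sequences of the genes came from RefSeq (build GRCr8), as the 250 bases before and 50 after each start site, and 9 of the 10 members had an entry there. Tcn2 had none, and Mmab, which was not measured, is included. Methyl donors feed DNA methylation, which in mammals falls mainly on CpG dinucleotides. The array measured no methylation, and the CpG content of the upstream regions is given as context only. The windows held 10 to 37 CpG (median 22), against a median of 7 and an upper quartile of 19 over all 33469 upstream windows of that length. Those windows were not limited to genes tested in these livers, so the 2 sets are unlike. The called genes lie at opposite ends of the members' range, with 37 CpG at Abcc1 (chr10:1162318-1162617, minus strand) and 10 at Cd320 (chr7:15328093-15328392, plus strand). Both windows are shown with each CpG in capitals, and that of Abcc1 also holds the GC box GGGCGG at 5 places on either strand, of which neighbours share 1 base in 2 cases. Of all such windows 33.06% hold at least 1 GC box.
Abcc1: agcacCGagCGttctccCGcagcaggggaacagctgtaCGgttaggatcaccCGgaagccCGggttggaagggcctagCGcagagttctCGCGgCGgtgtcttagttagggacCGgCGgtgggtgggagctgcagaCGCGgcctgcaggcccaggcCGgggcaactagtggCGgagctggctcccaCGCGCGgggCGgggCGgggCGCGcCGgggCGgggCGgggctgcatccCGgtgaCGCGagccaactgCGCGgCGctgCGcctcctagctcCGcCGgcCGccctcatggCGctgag
Cd320: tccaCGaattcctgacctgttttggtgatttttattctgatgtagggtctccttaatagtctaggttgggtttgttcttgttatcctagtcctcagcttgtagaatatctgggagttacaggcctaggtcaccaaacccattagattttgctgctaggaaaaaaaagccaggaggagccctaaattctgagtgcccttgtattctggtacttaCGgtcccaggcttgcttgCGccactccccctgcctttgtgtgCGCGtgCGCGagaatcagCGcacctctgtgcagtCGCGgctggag

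Neither the Abcc1 nor the Cd320 window holds the letters of a cAMP response element (TGACGTCA), the NRF1 element (GCGCAT followed at once by GCGC), the core of the antioxidant response element (TGACNNNGC) or the CCAAT box, which were searched on both strands. The windows of other members do: the cAMP response element lies at -113 from the start site of Lmbrd1 (1.829% of all windows hold it) and the NRF1 element at -91 in Mmaa (0.8515%). The CCAAT box was present in 37.49% of all windows and the antioxidant core in 12.06%. A match describes letters only and not binding.

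In mouse and human, MMACHC is known to be controlled by the transcription factors THAP11 and ZNF143 with their cofactor HCFC1. The Mmachc window (chr5:135409186-135409485, minus strand) holds the letters ACTACA, then any 2 bases, then TCCC of a ZNF143 and THAP11 element at -84 on the minus and at -33 on the plus strand, in capitals below. These letters were chosen after this window had been seen, and 1.748% of all windows hold them on either strand. Of the genes of these factors, Thap11 differed by -0.22 ± 0.10, Hcfc1 by 0.06 ± 0.08 and Zfp143 by 0.08 ± 0.10 (log2, SE, n = 4 each), and limma called none (adjusted p = 0.215, 0.689 and 0.656).
Mmachc: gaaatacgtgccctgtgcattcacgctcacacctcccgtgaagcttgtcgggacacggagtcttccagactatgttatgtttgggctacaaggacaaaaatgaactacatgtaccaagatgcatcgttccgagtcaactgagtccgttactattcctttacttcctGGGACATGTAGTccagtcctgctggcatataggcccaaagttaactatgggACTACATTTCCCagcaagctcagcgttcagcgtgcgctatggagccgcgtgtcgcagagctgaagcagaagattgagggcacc

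The other genes of cobalamin uptake, transport and processing formed a list of 12, of which 9 were tested. The intestinal uptake genes Cblif, Cubn and Amn were not. The 9 include Thap11, Hcfc1 and Zfp143, the factors named above, and Clybl, which are not themselves uptake or transport genes. By limma 0 of the 9 were called and 1 had an unadjusted p under 0.05, against 11.1% and 27.7% of all genes. Their median log2 change was 0.02. The exception at the unadjusted level was Clybl, a mitochondrial citramalyl-CoA lyase whose loss in humans goes with low circulating B12, at 0.43 ± 0.15 (SE, limma adjusted p = 0.109). Methionine synthase, Mtr, the other cobalamin-dependent enzyme, was well above background in only 5 of 8 samples. It read 6.76, 7.05, 6.85 and 6.95 in deficient livers 1 to 4, against 7.02, 6.87, 6.86 and 6.88 in control livers 1 to 4, a log2 difference of -0.01 ± 0.08 (SE, limma adjusted p = 0.958). The difference was -0.21 ± 0.20 for its reductase Mtrr, 0.02 ± 0.10 for Mmadhc, which directs cobalamin between cytosol and mitochondria, and -0.13 ± 0.09 for Abcd4, which works with Lmbrd1 at the lysosome (limma adjusted p = 0.547, 0.924 and 0.353).

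Around the carboxylase and the mutase, 13 of 14 listed genes of propionyl-CoA supply and disposal were tested. Of these, 2 fell and 0 rose by limma, against 6.56% and 4.51% of all genes. An unadjusted p under 0.05 was reached by 3 on the higher and 3 on the lower side, against 27.7% of all genes in either direction. The median log2 change was 0.01. Both genes that fell act late in valine breakdown. Hibadh, 3-hydroxyisobutyrate dehydrogenase, read 13.37, 13.54, 14.00 and 13.62 in deficient livers 1 to 4, against 14.00, 14.18, 14.38 and 14.22 in control livers 1 to 4. Deficient liver 3 reached the level of control liver 1, its partner on array 1, and the others were below all controls. The log2 change was -0.56 ± 0.10 (SE, limma adjusted p = 0.0127). The call was lost without control liver 2 or 3, deficient liver 4, or array 2 or 3 (limma adjusted p = 0.0579, 0.0838, 0.0632, 0.0688 and 0.142), with changes between -0.70 and -0.42 over all 12 ways of leaving out a liver or an array.

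Aldh6a1, methylmalonate-semialdehyde dehydrogenase, takes the step that yields propionyl-CoA from valine. Its level was 9.42, 9.61, 9.55 and 9.59 in deficient livers 1 to 4, against 9.71, 10.02, 9.91 and 9.84 in control livers 1 to 4. Every deficient liver was below every control liver, and the log2 change was -0.33 ± 0.08 (SE, limma adjusted p = 0.0420). The call was kept without deficient liver 2 (limma adjusted p = 0.0195) or array 4 (0.0306) and lost when any other liver or array was left out (0.0660 to 0.312), with changes between -0.39 and -0.26. Mcee, the epimerase between the carboxylase and the mutase, differed by -0.06 ± 0.09 (SE, limma adjusted p = 0.679).

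Of the other ABCC transporters, the family of Abcc1, 8 of 9 were tested. Abcc5, an exporter of cyclic nucleotides, rose and Abcc6, a hepatocyte transporter involved in ATP release, fell, while the median of the 8 was -0.08. Over all genes 4.51% rose and 6.56% fell by the same test. Abcc5 read 11.52, 11.22, 11.08 and 11.32 in deficient livers 1 to 4, against 10.44, 10.20, 10.35 and 11.20 in control livers 1 to 4. Control liver 4 stood apart from the other controls, within the range of the deficient livers. The log2 change was 0.74 ± 0.18 (SE, limma adjusted p = 0.0368). The call was kept without deficient liver 2 or 3, control liver 4 or array 4 (limma adjusted p = 0.0176, 0.0376, 0.00796 and 0.00641) and lost when any other liver or array was left out (0.0723 to 0.285). The change was 0.54 without deficient liver 1 and 0.45 without array 2. These values are from the brightest probe of Abcc5. On the mean of its kept probes the change was smaller, at 0.50 (limma adjusted p = 0.0398).

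Abcc6 read 11.92, 11.47, 11.81 and 11.68 in deficient livers 1 to 4, against 12.34, 12.21, 12.13 and 11.85 in control livers 1 to 4. It was lower in the deficient liver on all 4 arrays, by a log2 change of -0.41 ± 0.10 (SE, limma adjusted p = 0.0311). The call was kept without deficient liver 1, 2 or 3 or array 4 (limma adjusted p = 0.0225, 0.0252, 0.0460 and 0.0214) and lost when any other liver or array was left out (0.0514 to 0.208).

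**Figure D4:**
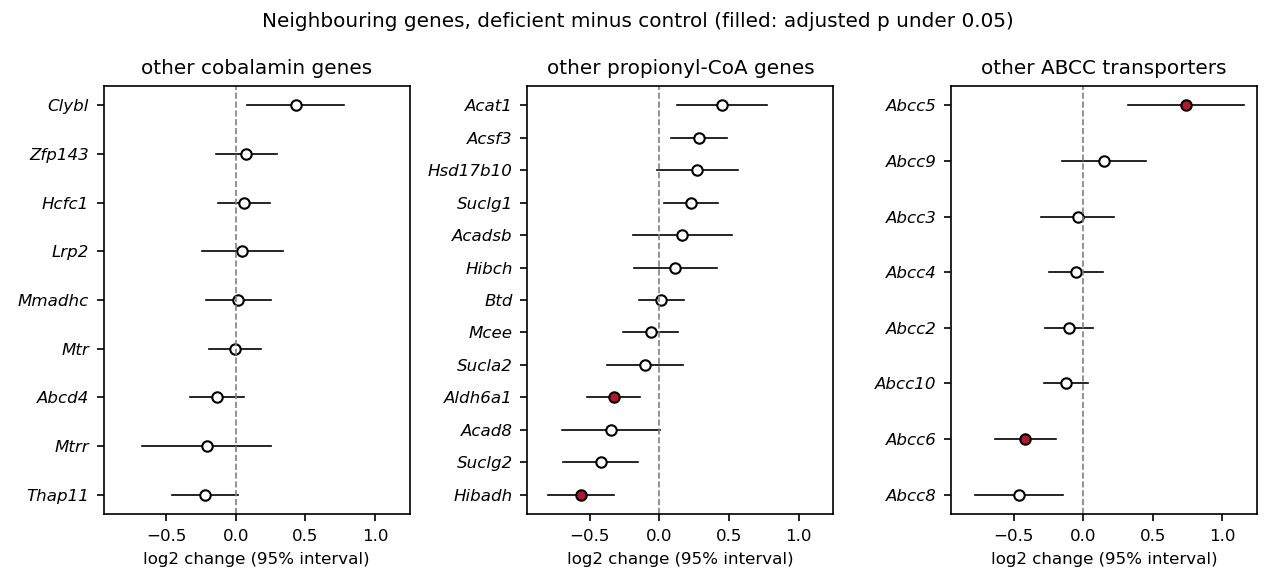
Log2 change, deficient minus control (horizontal axis), with its 95% interval, for the tested genes of the 3 lists around the members: 9 other cobalamin genes, 13 propionyl-CoA genes and 8 other ABCC transporters. Filled points passed the adjusted p threshold of 0.05, and they are Abcc5 on the higher side and Hibadh, Aldh6a1 and Abcc6 on the lower side.

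Median spot signals were between 152.5 and 299.0 over backgrounds of 33 to 58, and 59.1% to 65.5% of the spots exceeded background clearly by the scanner software's own mark. None of the members' spots was in a region of high local background or marked as an outlier. The tissue label was checked on 10 hepatocyte markers, all of which were tested and well above background in all 8 samples. Of them 4 (Ttr, Tf, Serpina1 and Ahsg) fell in deficient livers and 0 rose by limma. At an unadjusted p under 0.05, 7 were lower and 1 (Apoa1) was higher. The changes of 8 lay below 0 and those of 2 (Apoa1 and Apob) above, and the median of the 10 was -0.52 (log2). The summed linear intensity of the 10 was 897262 to 1345492 in deficient livers and 1321659 to 1698369 in control livers. Of 12 skeletal muscle markers 4 were tested, and Tnnc2 rose. Their sum was 1858 to 9458 in deficient livers and 734 to 1156 in control livers, the highest value being in deficient liver 3, while Tnnc2 was higher in the deficient liver on all 4 arrays, by 2.57 to 3.12 (log2). Neutrophil markers fell in 4 of 6 tested (sum 1642 to 2299 in deficient and 2357 to 3642 in control livers). By limma 1 of 6 erythroid markers rose (Tfrc). The other 5 lay below 0 without being called, 2 of them at an unadjusted p under 0.05, and the median of the 6 was -0.47 (log2). By the same test 1 of 9 stellate cell (Lrat) and 1 of 3 lymphocyte (Cd3g) markers fell. Calls were 0 of 10 Kupffer cell, 0 of 7 endothelial and 0 of 4 cholangiocyte markers, with 0, 2 and 1 at an unadjusted p under 0.05. Over all genes 11.1% were called and 27.7% had an unadjusted p under 0.05. The part of these differences in the values of the members was not tested.

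The calls on Abcc1 and Cd320 lie near the threshold, and other ways of processing moved them across it without turning their direction. Abcc1 was higher in deficient livers in 28 of 28 alternatives, by 0.29 to 0.59 (log2), and passed the threshold in 8. Cd320 was higher in 28 of 28, by 0.20 to 0.34, and passed in 7. The alternatives reuse the same livers, so these tallies give no independent support for a direction. Several, such as the fits without the dye term or the array block, leave the Abcc1 change at 0.42 and alter only its SE. With the authors' deposited normalised values in place of the scanner signals, the log2 change was 0.40 for Abcc1 (limma adjusted p = 0.0608) and 0.25 for Cd320 (0.101).

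**Figure D5:**
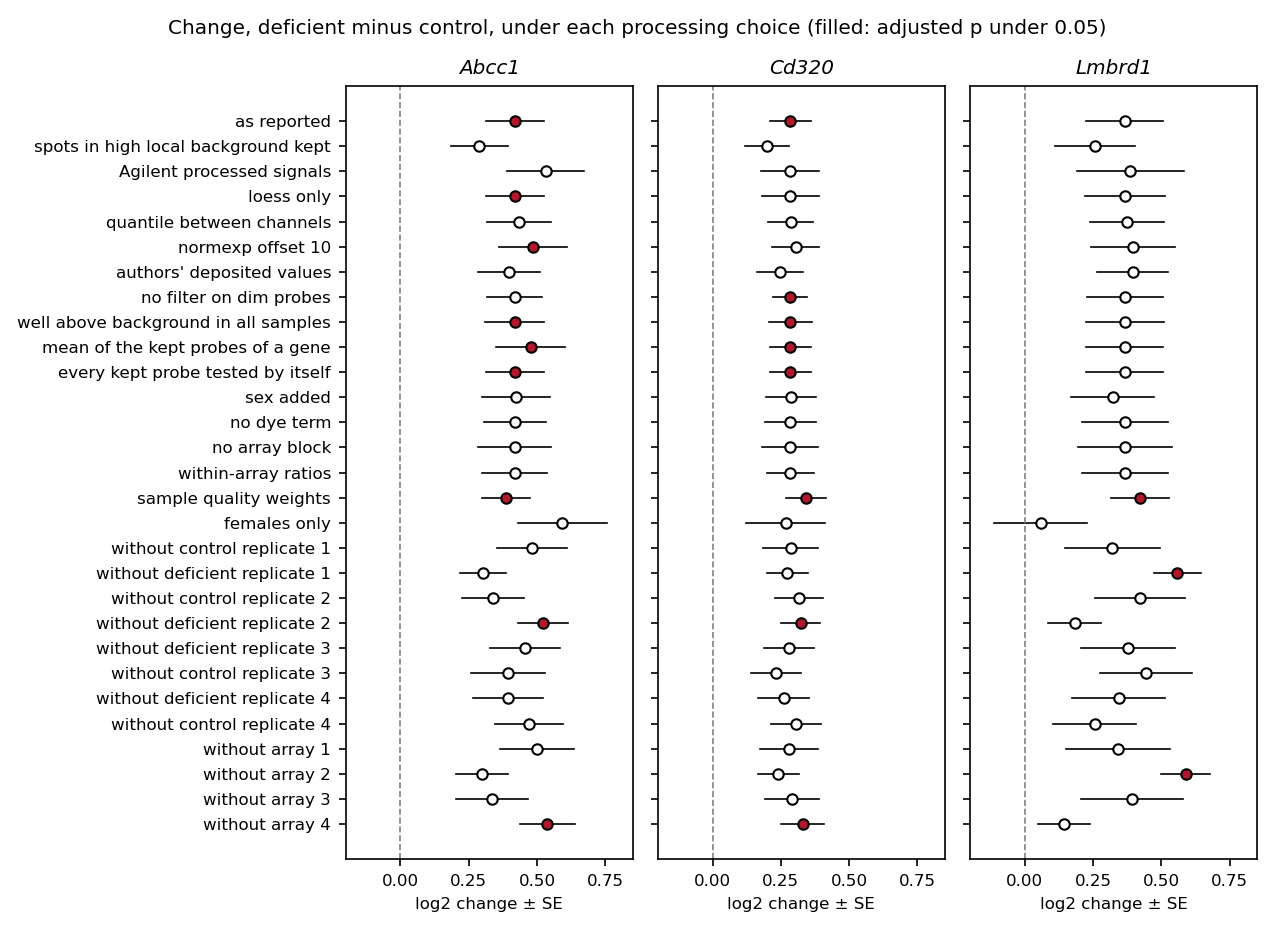
Log2 change ± SE, deficient minus control (horizontal axis), of Abcc1, Cd320 and Lmbrd1 as reported and under each of 28 other processing choices (rows), filled where the adjusted p was under 0.05. The points of all 3 genes are to the right of 0 in every row, and Abcc1 is filled in 8 of the alternatives, Cd320 in 7 and Lmbrd1 in 3.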

How the data were processed

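Each deposited file holds the spot intensities of an Agilent 2-colour rat array, and the labels give the dye of its sample. Files with identical array data were taken as 1 array. The intensities were extracted by version 10.7.1.1 of Agilent Feature Extraction, per the submitters' processing notes. The authors' deposited table of normalised intensities is on a linear scale, the sources used here do not give its normalisation, and it served as an alternative. Its log2 values correlated with the log2 signals of the matching channel in the deposited files at r = 0.9945 to 0.9995, and its medians per sample were 183.8 to 192.5.

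limma 3.58.1 under R 4.3.3 normalised the signals with normexp (offset 50), loess within arrays and Aquantile between arrays. Spots with a local background over 5 times the median of their channel were left out (74 values), as were spots marked as outliers. Probes well above background in at least 4 of 8 samples were kept, and the brightest stood for each gene name. Diet and dye were fitted with the array as a random block (correlation 0.42). The script was tested on simulated data. The text names every member with a probe, every called gene of the 3 lists around them, and Mtr, Mtrr, Mmadhc, Mcee and Abcd4. Clybl, Thap11, Hcfc1 and Zfp143 were chosen after their values were seen. Acad8 is listed in the files as RGD1564209. Members, lists and the step on local background were chosen with earlier results of these data known.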

Additional observations from a re-analysis of the deposited data

Results flagged for a closer look

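Among the 18 groups of 4 livers examined for a sample far from the rest (9 genes, deficient and control), 1 was marked, and chance alone marks about 1 in 20. It was the level of Mmaa in control liver 3, which was 10.96 while the other 3 control livers were at 11.02. The gap is small in size, and the deficient livers spread from 10.76 to 11.23.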

How the results depend on the processing

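With 4 arrays the precision is low, and counts of calls moved with many choices. The directions of Abcc1, Cd320, Abcc5, Abcc6, Hibadh and Aldh6a1 were not reversed in any of the 28 alternatives, and those of the other called genes were not followed. The alternatives reuse the same livers and some alter only the SE, so this is no independent support for a direction. The count of genes called was 956 with spots in high local background kept, 733 with Agilent's processed signals, 813 with sex added, 841 without the dye term, 390 without the array block, 461 on within-array ratios, 2694 with sample weights and 40 in females only, against 1651 as reported. It was between 211 (without array 3) and 3546 (without deficient liver 2) when a liver or an array was left out.

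Of the members, 2 were called as reported. Their count was 0 with spots in high background kept, Agilent's signals, quantile normalisation, the authors' values, sex added, no dye term, no array block, within-array ratios and females only. It was 1 with loess only, no filter on dim probes and an offset of 10, 3 with sample weights, and 0 to 2 over the left-out livers and arrays. The count of members' probes called was 0 under the same 9 settings, 1 with no filter or an offset of 10, 4 with sample weights, and 0 to 3 over the left-out livers and arrays, against 2 as reported. Of the other genes in the 3 lists, 4 were called as reported, 0 with Agilent's signals, no array block, within-array ratios and females only, 1 with sex added or no dye term, 2 with spots in high background kept, 9 with sample weights, and 0 to 7 over the left-out livers and arrays.

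The count of members called for sex was 0 as reported and 0 to 4 over the left-out livers and arrays, the 4 being without deficient liver 1. An alternative chosen after seeing the data kept the array correlation of the 8 samples in that fit, and gave 0 members called for sex, 1 for diet (Lmbrd1) and 1 probe, of 1067 genes called. The second Abcc1 probe was higher in deficient livers in 26 of 26 alternatives and passed the threshold in 4. Each array pairs 1 deficient with 1 control liver, and the test on these pairs (within-array ratios) ended both diet calls, with a limma adjusted p of 0.125 for Abcc1 and 0.137 for Cd320. The replicate numbers were given in the order of the samples and pair no animals.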
